A study of Mus musculus with 7 samples.

Results

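Sites of H3K4me3 that lie away from annotated gene starts were examined in mouse embryonic stem cells (ESCs). They were chosen by the H3K4me3 ChIP-seq library of the F123 line: 1 kb bins of the mm9 autosomes that held over 8 times the autosomal mean of distinct alignments and lay more than 5 kb from every transcript start of GENCODE M1, with adjacent bins joined. This rule gave 1543 sites. Without regard to starts, bins over the same threshold joined into 13281 sites on the autosomes. Those within 5 kb of a start joined into 11757, called start sites here, and a run of bins that crosses the limit of 5 kb counts among both kinds. Because H3K4me3 chose the distal sites, their H3K4me3 values are given as a description only. H3K27ac, RNA and sequence took no part in the choice, and gene position entered only through the distance of 5 kb.

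The study asked whether a distal super-enhancer of Sox2, a transcription factor of the pluripotency network, is needed for Sox2 expression in ESCs. F123 is a hybrid ESC line that carries CAST and 129 alleles, and J1 is another mouse ESC line. The 7 libraries were ChIP-seq of H3K4me3 in F123, of H3K27ac in F123 and of H3K27ac in J1, and strand-specific RNA-seq of polyadenylated RNA in wild-type F123 and in F123 clones made with CRISPR. The CAST+/129- clone lacked the enhancer on the 129 allele, the CAST-/129+ clone lacked it on the CAST allele, and the CAST-/129- clone lacked both copies. Each genotype was 1 clone and each condition 1 library, so differences between libraries could not be set against replicate spread and no test between conditions was made. Wherever intervals are given, they are exact Poisson 95% intervals and cover counting error only.

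H3K4me3 is the histone mark of promoters. It is laid down around active starts and at CpG islands, stretches of DNA rich in CpG dinucleotides, by complexes that bind unmethylated CpG. H3K27ac marks active promoters and active enhancers. RNA that starts at a promoter runs away from it, so the strand of RNA on either side describes a site of this kind.

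The libraries differed in depth. The F123 H3K4me3 library held 7108751 distinct alignments from 9007794 reads, the F123 H3K27ac library 1576875 from 8047321 reads, and the J1 H3K27ac library 7743500 from 81285265 reads. Among the RNA libraries, wild type was deepest with 33684661 distinct alignments, CAST+/129- followed with 16380802, CAST-/129+ with 8613113 and CAST-/129- with 7557984. RNA is given below as counts per 1000000 autosomal distinct alignments (CPM), and 1 CPM stood for 31.97, 15.6, 8.14 and 7.16 alignments in that order, which all lists of 4 libraries keep. Sox2, the gene whose enhancer was removed, was at 334, 161, 134 and 14.8 CPM. Pou5f1, another factor of the pluripotency network, was at 330, 238, 348 and 300 CPM, Nanog at 226, 207, 128 and 70.99 CPM, and Zfp42, a marker of undifferentiated ESCs, at 259, 238, 136 and 76.7 CPM. Of 10 markers of differentiated cells, 5, 7 and 7 were above wild type in the 3 clones, and their summed level was 187, 158, 260 and 211 CPM. Among them T, a mesoderm marker, was at 0.751, 5.84, 17.7 and 68.5 CPM, while Gata6, an endoderm marker, was at 107, 7.51, 16.1 and 11.7 CPM and Gata4, another, at 53.0, 5.71, 37.8 and 12.6 CPM. Sox17, a further endoderm marker, was at 11.6, 4.495, 15.4 and 12.7 CPM. Hand1 was at 0.813, 70.1, 65.1 and 32.1 CPM, and Eomes at 12.6, 60.9, 87.6 and 44.3 CPM. Afp was at 0 alignments in wild type and CAST+/129-, and at 4.79 and 0.2795 CPM in CAST-/129+ and CAST-/129-. The part of these shifts in the RNA differences between clones given below was not tested. Fewer cells of a type and less RNA per cell cannot be told apart in these bulk libraries.

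Part of the sites stood apart before any result. A set of 85 sites (5.51%) had, in their highest bin, over 1.5 reads per distinct alignment or at least 50% of 32-mers that recur elsewhere in the genome. They are called stacked sites here, and this grouping was chosen after the data were seen. They included 8 of the 10 sites with the highest H3K4me3 and 19 of the top 40, against 5.51% of all sites, and 70.6% of them had H3K27ac in F123. In the whole H3K4me3 library the mean was 1.27 reads per distinct alignment, and the highest stacked site, near Gm9075, had 52.8. Among start sites the 99th percentile of this ratio was 1.42. An input library was not analysed here. Without stacked sites, 539 of 1458 (37.0%) had H3K27ac in F123, a call explained below.

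The sites differed widely in sequence. To show the range, 7 stretches of 300 bases are printed below, from the centre of the highest bin of each named site, in the mm9 build on the plus strand, with CpG dinucleotides in capitals. They were chosen after their values were seen. The first 6 are rich in CpG, lie beside directional RNA or in the pluripotency gene Tet1, and come from sites that were not stacked. The last is poor in CpG and had some of the strongest H3K4me3, but comes from a stacked site with 45.2 reads per alignment. No CpG-poor stretch from a site that was not stacked is printed.
Rnf4 site (chr5:34679351-34679650): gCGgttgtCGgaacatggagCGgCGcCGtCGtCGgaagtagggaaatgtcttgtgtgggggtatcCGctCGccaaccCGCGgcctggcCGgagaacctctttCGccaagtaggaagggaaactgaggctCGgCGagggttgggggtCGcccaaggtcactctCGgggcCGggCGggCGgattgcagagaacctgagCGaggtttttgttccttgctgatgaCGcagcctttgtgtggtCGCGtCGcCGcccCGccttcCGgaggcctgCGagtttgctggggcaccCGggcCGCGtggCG
Arhgap5 site (chr12:53605351-53605650): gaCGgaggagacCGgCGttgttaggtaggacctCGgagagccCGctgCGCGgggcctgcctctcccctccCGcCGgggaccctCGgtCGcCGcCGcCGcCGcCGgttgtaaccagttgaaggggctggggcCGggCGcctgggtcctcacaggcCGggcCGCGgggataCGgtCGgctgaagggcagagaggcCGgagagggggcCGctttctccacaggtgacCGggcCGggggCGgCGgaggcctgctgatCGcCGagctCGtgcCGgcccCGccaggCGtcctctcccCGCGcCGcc
Mirlet7a-1 site (chr13:48641351-48641650): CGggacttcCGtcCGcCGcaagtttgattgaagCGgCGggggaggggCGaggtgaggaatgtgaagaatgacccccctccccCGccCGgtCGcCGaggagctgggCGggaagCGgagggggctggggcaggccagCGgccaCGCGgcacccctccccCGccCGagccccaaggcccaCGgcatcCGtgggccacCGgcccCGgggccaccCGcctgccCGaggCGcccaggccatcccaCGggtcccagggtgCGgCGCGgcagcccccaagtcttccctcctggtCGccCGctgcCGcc
Kcnq1 intron site (chr7:150481351-150481650): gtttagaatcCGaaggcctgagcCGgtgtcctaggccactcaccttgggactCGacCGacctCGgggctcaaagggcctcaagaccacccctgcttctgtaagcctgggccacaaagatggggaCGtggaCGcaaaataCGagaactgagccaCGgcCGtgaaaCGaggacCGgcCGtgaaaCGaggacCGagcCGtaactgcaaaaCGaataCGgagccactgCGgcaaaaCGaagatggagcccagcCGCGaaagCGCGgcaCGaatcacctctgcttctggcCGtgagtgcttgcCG
Tet1 intron site (chr10:62349351-62349650): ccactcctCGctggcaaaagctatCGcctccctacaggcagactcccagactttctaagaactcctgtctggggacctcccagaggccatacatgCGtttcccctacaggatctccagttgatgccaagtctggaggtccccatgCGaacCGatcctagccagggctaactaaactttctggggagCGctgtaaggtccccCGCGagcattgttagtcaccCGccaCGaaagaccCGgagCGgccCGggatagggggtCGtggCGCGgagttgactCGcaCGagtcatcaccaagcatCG
Sipa1l2 site (chr8:128093351-128093650): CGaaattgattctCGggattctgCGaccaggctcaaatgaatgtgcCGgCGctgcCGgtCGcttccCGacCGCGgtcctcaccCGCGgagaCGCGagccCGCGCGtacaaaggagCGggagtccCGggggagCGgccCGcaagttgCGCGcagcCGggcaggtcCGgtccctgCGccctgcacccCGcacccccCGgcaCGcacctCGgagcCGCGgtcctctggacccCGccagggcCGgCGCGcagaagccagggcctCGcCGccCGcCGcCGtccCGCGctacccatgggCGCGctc
Gm5614 site (chr9:35112351-35112650): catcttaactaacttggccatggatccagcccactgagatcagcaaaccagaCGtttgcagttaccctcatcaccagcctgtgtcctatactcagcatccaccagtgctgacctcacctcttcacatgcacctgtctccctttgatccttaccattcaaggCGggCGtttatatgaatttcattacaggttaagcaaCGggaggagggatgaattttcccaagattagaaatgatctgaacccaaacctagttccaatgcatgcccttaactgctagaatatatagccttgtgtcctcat
The Rnf4, Arhgap5, Mirlet7a-1, Kcnq1, Tet1 and Sipa1l2 stretches hold 33, 38, 32, 27, 19 and 45 CpG in 300 bases, and the Gm5614 stretch holds 4. Rnf4 encodes a ubiquitin ligase that acts on SUMO-modified proteins, Mirlet7a-1 a let-7 microRNA, Kcnq1 a potassium channel in an imprinted domain, and Tet1 an enzyme that oxidises 5-methylcytosine. The names give the nearest start and no target.

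Most sites were short and close to the threshold. Of the 1543 sites, 1381 (89.5%) were a single bin, and the widest covered 7000 bp. The threshold fell at 23 alignments, or 8.21 times the mean of 2.80 per bin, and 194 sites lay exactly at it, while 261 distal bins lay 1 alignment below, at 7.85 times. H3K27ac in F123 exceeded 5 times its mean at 23.2% of the former and 27.6% of the latter. The H3K4me3 fold of the sites had a median of 10.4, quartiles of 8.92 and 13.6, and a maximum of 186. Only 508 sites exceeded 12-fold, 172 exceeded 20-fold and 36 exceeded 40-fold.

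H3K27ac was present at a minority of the sites, far above its frequency in distal DNA and below that at start sites. A site was called acetylated where its bin with the most H3K27ac held over 5 times the autosomal mean of distinct H3K27ac alignments. That bin need not be the one with the most H3K4me3. In F123, 599 sites (38.8%) were acetylated against 1.69% of all distal bins, and counted by bin the share was 40.6%. In J1, 605 sites (39.2%) were acetylated against 1.31% of all distal bins. Start sites were acetylated in 64.8% of cases in F123 and 60.1% in J1. The median H3K27ac fold of the sites was 3.20 in F123 and 3.58 in J1, against 11.2 and 6.84 at start sites. The F123 call needed 4 alignments, since 1 alignment was worth 1.60-fold, and 301 sites (19.5%) had none in F123. The J1 call needed 16 alignments.

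The ESC lines shared most of the acetylated sites. There were 487 sites (31.6%) acetylated in both, 112 in F123 alone, 118 in J1 alone and 826 (53.5%) in neither. The lines differed in depth, and its part in the counts for 1 line alone was not tested. Across sites acetylated in both, the F123 fold had a median of 1.49 times the J1 fold, and start sites had 1.95 times. With over 15-fold in F123 and at least 15 times less in J1, a rule set after the data were seen, 6 sites stood out, against 1 site the other way. One lay in an exon of Ubqln1, at chr13:58278001-58280000, with 51.0-fold H3K4me3 and 36.8-fold against 0.326-fold H3K27ac. Further ones were near Trdv2-1 (73.7 against 0.326), in an intron of Pcdh9 (25.6 against 0.326), near SNORA17 (25.6 against 0.977) and in an exon of Ifnar1 (20.8 against 0.977). Of the 6 sites, 4 were stacked, among them those of Ubqln1, Trdv2-1 and Pcdh9.

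**Figure D1:**
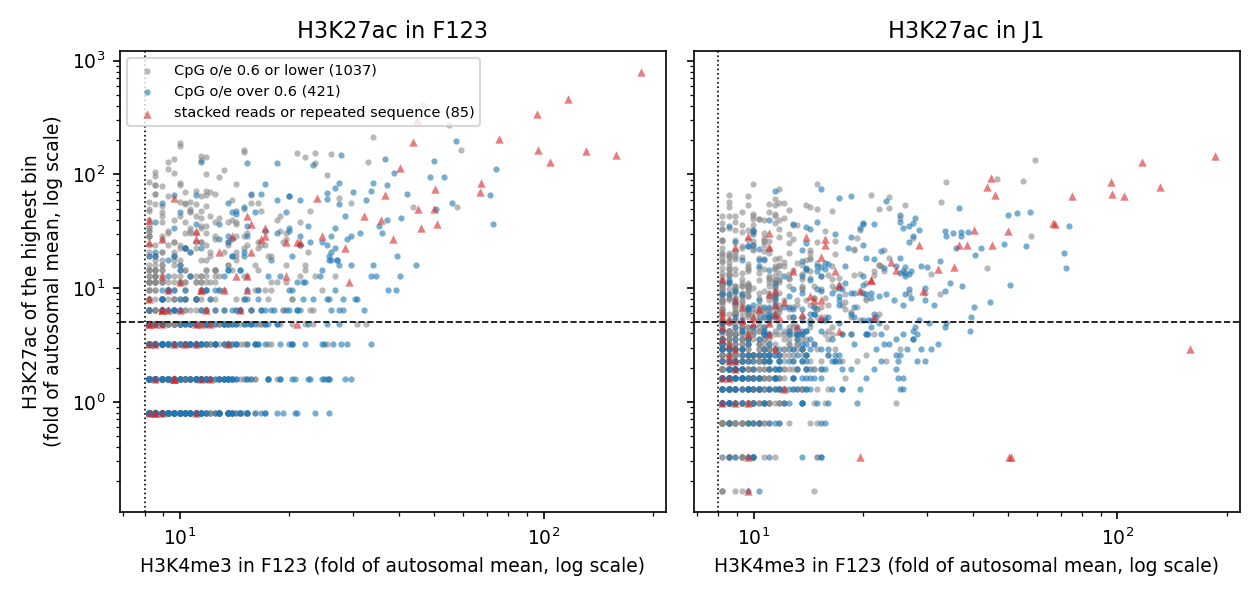
H3K27ac of the bin with the most H3K27ac in each of the 1543 sites, against H3K4me3 of its highest H3K4me3 bin in F123. Both are fold of the autosomal mean on log axes, with F123 on the left and J1 on the right. Stacked sites are drawn apart from the rest. Among sites over 40-fold in H3K4me3, 100% were acetylated in F123 and 91.7% in J1.

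The share of acetylated sites was higher at sites with more H3K4me3. Among 1035 sites of 8 to 12-fold H3K4me3, 28.99% were acetylated in F123 and 30.1% in J1. Among 336 sites of 12 to 20-fold the shares were 48.2% and 49.7%, and among 136 sites of 20 to 40-fold 74.3% and 68.4%. All 36 sites over 40-fold were acetylated in F123, and 91.7% in J1. Without the stacked sites, 18 sites remained over 40-fold, and 100% of them were acetylated in both lines. Among these, sites near P4ha2, Gm5466 and E030030I06Rik had 1.48, 1.46 and 1.44 reads per alignment, near the limit of 1.5.

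**Figure D2:**
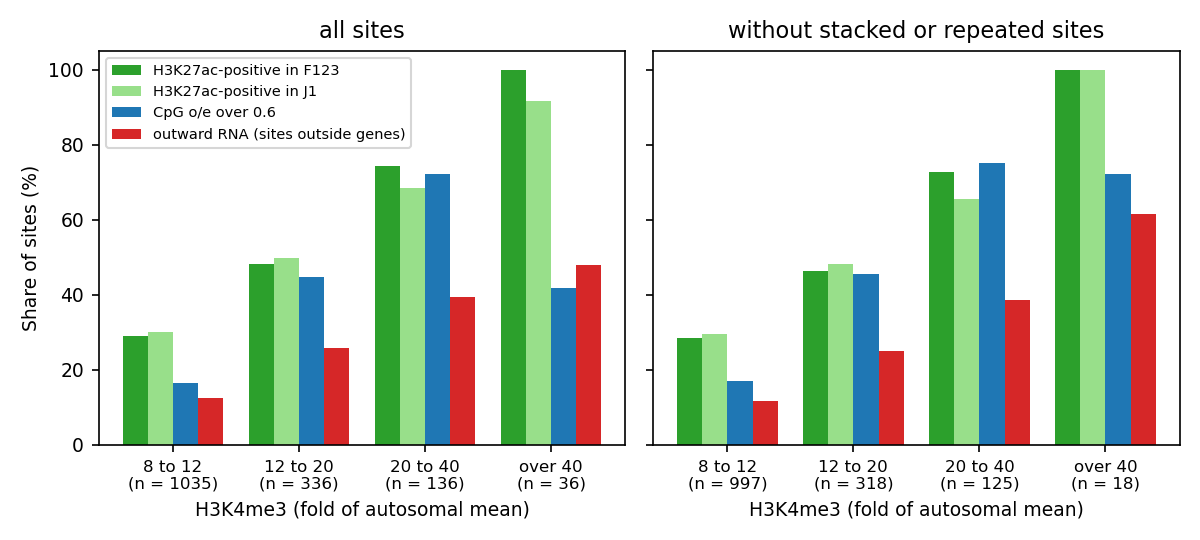
Share of sites (%) that were acetylated in F123 or J1, had CpG content above 0.6, or had outward RNA, by class of H3K4me3 fold, for all sites and without stacked sites. In F123 the acetylated share goes from 28.99% at 8 to 12-fold to 100% over 40-fold.

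CpG content was far above that of distal DNA. The ratio of observed to expected CpG in the highest bin had a median of 0.423 at the sites, 0.156 in distal bins and 0.728 at start sites. A ratio above 0.6, the usual limit for a CpG island, was found at 434 sites (28.1%), against 0.288% of distal bins and 75.1% of start sites. G and C made up a median of 52.2% of bases at the sites, 41.2% in distal bins and 59.8% at start sites. The share of CpG-rich sites was 16.5% at 8 to 12-fold H3K4me3, 44.6% at 12 to 20-fold and 72.1% at 20 to 40-fold, and 41.7% over 40-fold, where it was 72.2% without stacked sites. CpG-rich sites were acetylated in F123 in 44.0% of cases and the other 1109 sites in 36.8%. The letters GGGCGG, a match for the core that Sp-family factors bind, were found on either strand in the highest bin of 49.8% of sites, against 7.08% of distal bins and 84.8% of start sites. Their share was 83.6% at CpG-rich and 36.5% at other sites. CACGTG, an E-box, was found in 18.9% of sites, 8.85% of distal bins and 20.2% of start sites. CCAAT was found in 68.9% of sites, 78.1% of distal bins and 62.8% of start sites. These are matches of letters and do not show that a factor was bound.

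**Figure D3:**
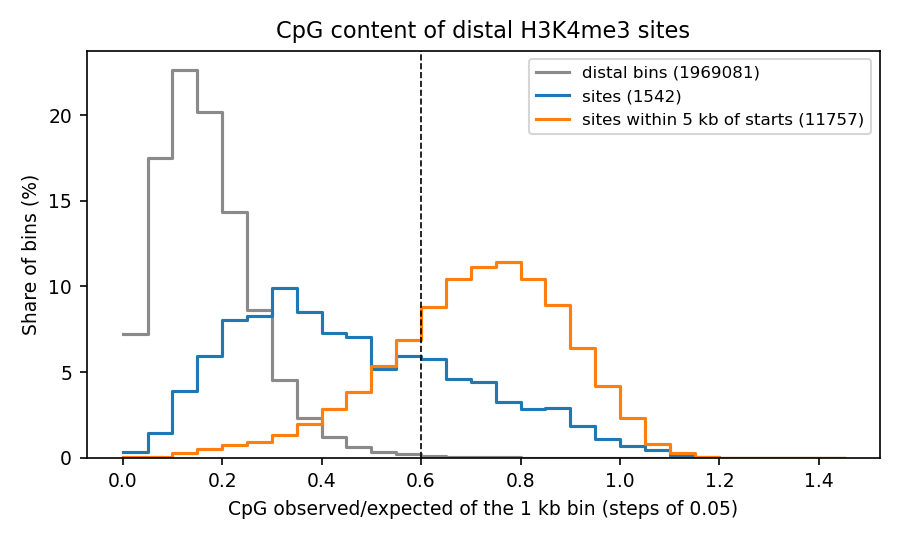
Distribution of the ratio of observed to expected CpG (steps of 0.05) in the highest bin of the sites, in all distal bins and at start sites, as share of bins (%); the dashed line is at 0.6. The sites lie between the others, with 28.1% above the line against 0.288% of distal bins.

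The sites were more often exonic and closer to genes than distal DNA as a whole. Of the 1543 sites, 966 (62.6%) lay outside genes, 282 (18.3%) in introns and 295 (19.1%) touched an exon, against 64.0%, 30.2% and 5.79% of distal bins. The distance to the nearest start had a median of 15944 bp and quartiles of 8718 and 30549 bp. Beyond 50 kb from a start lay 14.0% of sites and 47.5% of distal bins, and beyond 100 kb 3.56% and 30.1%. The nearest start belonged to a protein-coding gene for 1135 sites (73.6%), to a pseudogene for 101, to a processed transcript for 72, to a lincRNA for 63 and to a miRNA for 60. A total of 18 sites adjoined an over-threshold bin that lay within 5 kb of a start.

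RNA was near a large part of the sites, and it pointed away from them more often than in distal DNA. A site had RNA where 1 strand held at least 1 CPM in the 5 kb to its left or to its right. In wild type, 707 sites (45.8%) did, against 17.2% of distal bins, and outside genes 427 of 966 (44.2%) did, against 13.0%. RNA was outward where the plus strand to the right, or the minus strand to the left, held at least 1 CPM and at least 3 times the same strand on the opposite side. Outside genes this was so for 185 of 966 sites (19.2%) against 3.71% of distal bins, with 93 plus, 98 minus and 6 on both strands. Without stacked sites it was so for 166 of 914 (18.2%). Inward RNA, the mirror of this rule, was at 177 (18.3%) of these sites against 5.60% of distal bins. Of 827 sites with no gene within 5 kb, outward RNA was at 175 (21.2%) against 3.73% of distal bins of that kind, and inward RNA at 91 (11.0%) against 4.02%. Of all 11757 start sites, within genes or outside them, 44.6% had outward RNA. The outward CPM at the 185 sites had quartiles of 1.81, 3.44 and 7.51.

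The outward share differed with acetylation, H3K4me3 and CpG. Outside genes it was 131 of 396 (33.1%) at sites acetylated in F123 and 54 of 570 (9.47%) at the others, while the inward share was 21.0% and 16.5%. It was 12.5% at 8 to 12-fold H3K4me3, 25.7% at 12 to 20-fold, 39.4% at 20 to 40-fold and 48.0% over 40-fold, or 61.5% there without stacked sites. CpG-rich sites had 66 of 297 (22.2%) and the other sites 119 of 669 (17.8%). A RefSeq gene that GENCODE M1 does not list was between the flanking genes for 133 of 158 outward sites (84.2%) and 571 of 722 other sites (79.1%) for which neighbours were matched. Within genes, 552 of 577 sites lay in genes of 1 strand, and 7 of them (1.27%) had outward RNA antisense to the gene against 118 (21.4%) in its sense. RNA of the gene itself and RNA that starts at the site cannot be told apart in its sense. Shares for distal bins within genes were not computed, so both shares stand without a background.

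The same strand order was seen in a profile of sites with no gene within 5 kb and no stacked reads. At the 298 acetylated sites, 32.6% held at least 3 plus-strand alignments in the 500 bp that begin 0.5 kb to the right of the centre and 16.8% at least 3 minus-strand alignments. In the 500 bp that begin 1.5 kb to the left, 33.9% held minus-strand and 17.4% plus-strand alignments. These windows had the highest plus-strand and minus-strand shares of the profile at acetylated sites. The mirror of the right window, the 500 bp that begin 1 kb to the left, had 31.2% for the minus strand and 24.5% for the plus strand. At 477 sites that were not acetylated, each strand was at 7.34% to 14.5% in every 500 bp within 10 kb of the centre.

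**Figure D4:**
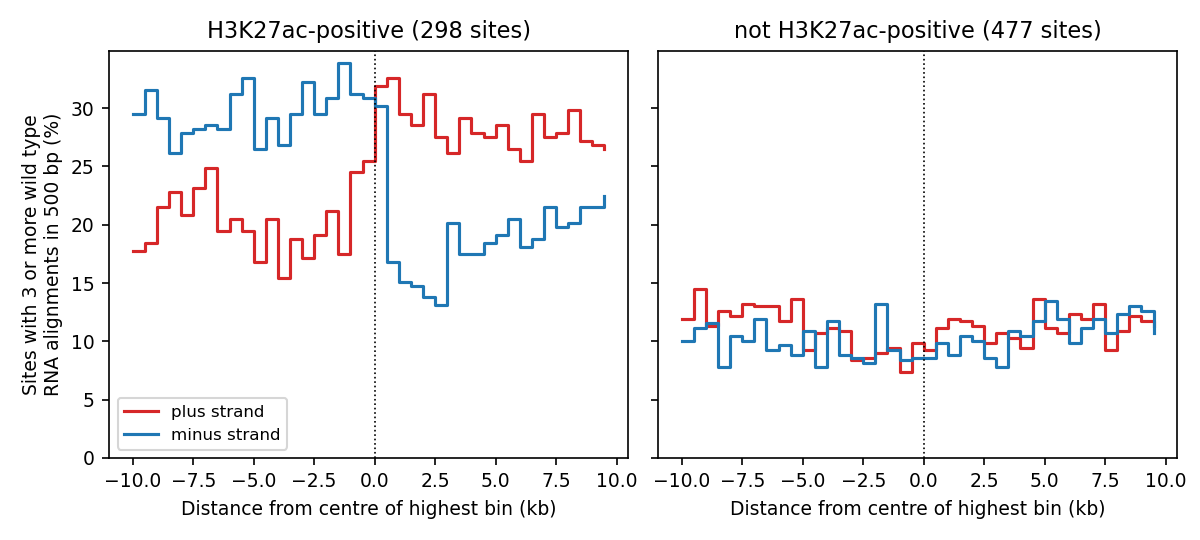
Share of sites (%) with 3 or more wild-type RNA alignments in each 500 bp, by transcript strand, against distance (kb) from the centre of the highest bin, for acetylated (298) and other (477) sites with no gene within 5 kb and no stacked reads. At 0.5 kb to the right of acetylated sites the plus strand is at 32.6% and the minus strand at 16.8%.

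The sites with the strongest H3K4me3 were mostly stacked, with 2 exceptions. The top site, near Ly6c2 at chr15:74915001-74918000, had 186-fold (170-202) H3K4me3, 799-fold (731-873) H3K27ac in F123 and 144-fold in J1, with 2.19 reads per alignment. Inside it lay 7175 plus-strand and 821 minus-strand RNA alignments in wild type, against 8 on each strand in the flanks together. High values were also found at chr4:3016001-3019000 (131-fold), chr18:3004001-3011000 (117-fold), an intron of Mdga2 (104-fold), chr12:75904001-75906000 (96.7-fold), near Gm5614 at chr9:35112001-35114000 (96.0-fold) and an intron of Cdk5rap2 (75.3-fold). These had 2.03 to 45.2 reads per alignment, and the Mdga2 site had 0 RNA alignments. The exceptions were the Rnf4 site (73.8-fold) and a site in an intron of Baz2a, a chromatin remodelling gene (72.4-fold, 36.8-fold H3K27ac), with 1.35 and 1.31 reads per alignment. By H3K27ac in F123, the leading sites were near Ly6c2 (799-fold), at chr18:3004001-3011000 (463-fold), near P4ha2 at chr11:53953001-53955000 (404-fold, 0.115 CpG ratio), near Gm5614 (340-fold) and in an intron of Kctd16 (303-fold). All but the P4ha2 site were stacked, and that site had 1.48 reads per alignment, near the limit of 1.5.

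Among sites with unstacked alignments, strong H3K4me3, acetylation, CpG and directional RNA met at several loci. The Rnf4 site, at chr5:34678001-34681000, lay outside genes and 7.36 kb from the Rnf4 start. Its H3K4me3 was 73.8-fold (64.1-84.6), its H3K27ac reached 110-fold (86.0-140) in F123 against 35.5-fold for J1, and its CpG ratio was 0.906. In wild type, 380 plus-strand alignments lay in the 5 kb to its right and 11 to its left, and 170 minus-strand alignments lay to its left and 0 to its right. It was 1 of the 6 sites with outward RNA on both strands. Over the site and 5 kb on each side, plus-strand RNA was at 20.3, 23.1, 20.4 and 21.1 CPM, and the clones' intervals overlapped that of wild type (18.7-21.9). Minus-strand RNA was at 6.69, 4.88, 3.44 and 6.29 CPM, and there CAST-/129+ (2.29-4.97) lay below wild type (5.83-7.65) with no overlap.

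The following sites were chosen after their values were seen. The Arhgap5 site, at chr12:53604001-53606000 and 11.1 kb from the start, had 53.2-fold H3K4me3, 94.5-fold H3K27ac in F123 and 45.9-fold in J1. Plus-strand RNA there lay on 1 side, with 215 alignments to the right and 0 to the left, and stood at 9.20, 4.69, 4.67 and 6.15 CPM. The Mirlet7a-1 site, at chr13:48640001-48642000, lay 6.36 kb from the start of this let-7 microRNA and had 48.9-fold H3K4me3 and 94.5-fold H3K27ac in F123. Minus-strand RNA was at 626 alignments to the left and 5 to the right, and at 25.6, 16.4, 8.85 and 9.36 CPM. Wild type was highest at both sites. The clones' intervals lay below that of wild type except for CAST-/129- at Arhgap5 (4.47-8.25 against 8.18-10.3).

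Other microRNA neighbours described here had less H3K4me3 than the Mirlet7a-1 site. A site 20.2 kb from Mir30d had 29.6-fold H3K4me3 and minus-strand RNA of 7.29, 4.24, 3.20 and 5.31 CPM. A site 5.26 kb from Mir183 had 21.4-fold H3K4me3 and 59.3-fold H3K27ac in F123, with minus-strand RNA of 2.28, 5.59, 7.005 and 4.89 CPM. A site 6.42 kb from Mir23a had 22.1-fold H3K4me3 and plus-strand RNA of 4.004, 14.7, 10.7 and 12.9 CPM. A site 9.56 kb from Mir145 had 8.92-fold H3K4me3, 52.9-fold H3K27ac in F123 and plus-strand RNA of 2.44, 1.41, 0.860 and 0.559 CPM. Near Mir183 and Mir23a the 3 clones were above wild type, and near Mir30d and Mir145 they were below it. Intervals overlapped that of wild type for CAST-/129- near Mir30d (3.758-7.289 against 6.383-8.287) and CAST+/129- near Mir145 (0.8853-2.139 against 1.929-3.045).

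Inside genes, the clearest antisense signal lay in an intron of Kcnq1, which is transcribed from the plus strand. The site, at chr7:150481001-150483000 and 146 kb from the nearest start, had 22.8-fold H3K4me3, 25.6-fold H3K27ac in F123 and 14.98-fold in J1. Minus-strand RNA was at 926 alignments to the left and 0 to the right in wild type. Over the whole window it was at 34.8, 39.8, 33.8 and 19.0 CPM, so that only CAST-/129- lay below wild type by more than its interval (15.9-22.5 against 32.8-36.9). A second antisense signal lay in an intron of Epo, the gene of erythropoietin, at chr5:137951001-137953000. Its plus-strand RNA, toward Gigyf1, held 300 alignments to the right and 2 to the left, and was at 12.8, 13.9, 8.97 and 9.64 CPM.

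Directional RNA was also found at a site near the limit of the H3K27ac call. The Sipa1l2 site, at chr8:128093001-128095000 and 76.4 kb from the nearest start, had 28.5-fold H3K4me3 and a CpG ratio of 1.09. Its H3K27ac rested on 1 alignment in F123, 1.60-fold (0.0406-8.93), an interval that spans the limit of 5-fold, and was just over it in J1 (5.21-fold). Minus-strand RNA was at 263 alignments to the left and 2 to the right, and at 9.95, 3.72, 2.58 and 5.03 CPM, with all 3 clones below wild type.

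Of the 5 sites outside genes with the most outward RNA, only the Zfp868 site had a CpG ratio above 0.6. At chr17:39979001-39980000, 5.77 kb from AY036118, 169772 plus-strand alignments lay to the right and 3 to the left, at 5345, 10049, 15337 and 16796 CPM. Those levels, over the site and both flanks, came from 170870, 156504, 124797 and 120191 distinct alignments, so the counts fell while the CPM rose. The part of library depth in the CPM was not tested. The RefSeq neighbours of this site include Rn18s-rs5, a copy of ribosomal RNA sequence, and the site was stacked. At chr7:82926001-82927000, between Akap13 and Klhl25, 7972 minus-strand alignments lay to the left and 2 to the right. That RNA was at 250, 182, 147 and 137 CPM, the site had 29.6-fold H3K4me3 and 56.1-fold H3K27ac in F123, and it was not stacked. RefSeq lists AU020206 between the flanking genes there. The others lay near Zfp868 (2656 minus-strand alignments to the left and 140 to the right), at chr13:3374001-3375000 (1434 and 60) and at chr2:181663001-181664000 (1251 plus-strand alignments to the right and 28 to the left). The Zfp868 and chr13 sites were stacked. The chr2 site was under both limits for stacked sites, but near them, with 1.42 reads per alignment and 47.9% of 32-mers recurring. Another site, chr2:181665001-181668000, with 32.8-fold H3K4me3, lay within the 5 kb to its right. Of the 1251 plus-strand alignments there, 1089 lay inside that other site.

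**Figure D5:**
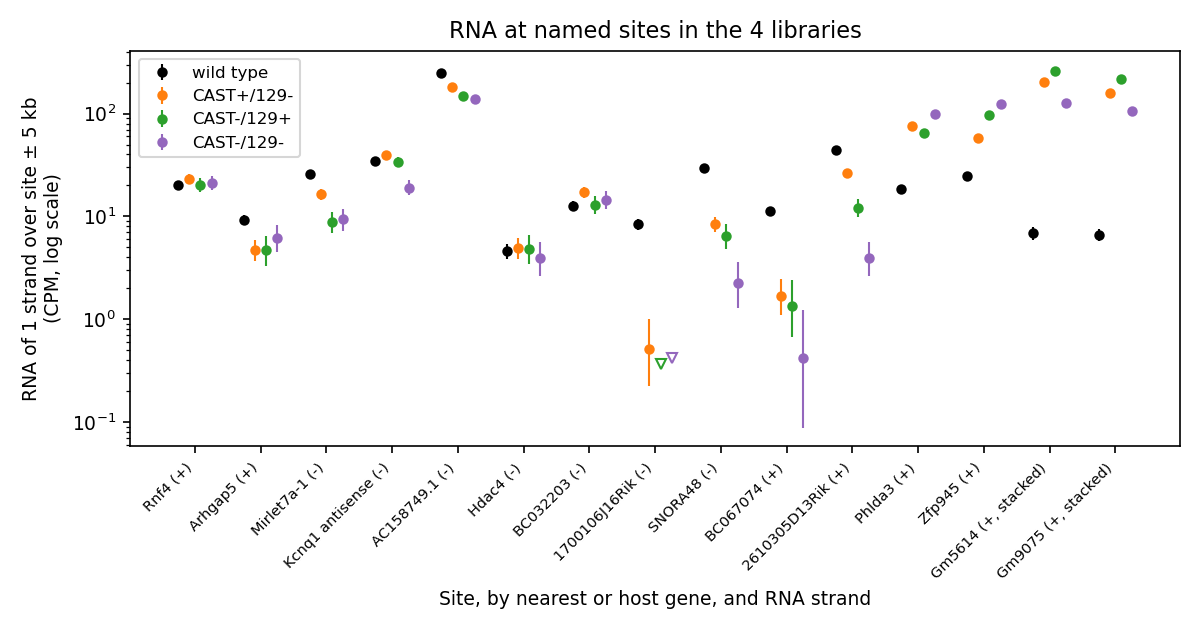
RNA of 1 strand over named sites and 5 kb on each side, in CPM on a log axis, in wild type and the 3 clones; points are single libraries, bars are exact Poisson 95% intervals for counting error only, open triangles are the level of 3 alignments that a count of 0 allows, and the strand is given with each name. At Rnf4 all libraries lie between 20.3 and 23.1 CPM, and near BC067074 they run from 11.2 in wild type to 0.419 in CAST-/129-.

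RNA at the sites differed between the clones and wild type in both directions. A site was called higher or lower where its RNA on a strand, over the site and 5 kb on each side, differed by at least 3-fold on the CPM + 0.5 scale. Of the 966 sites outside genes, 21 were higher and 26 lower in CAST+/129-, against 0.319% and 2.02% of distal bins outside genes. In CAST-/129+, 54 were higher and 49 lower, against 3.52% and 2.37%. Without stacked sites, which left 914, these counts were 13 and 25 in CAST+/129-, and 35 (3.83%) and 44 in CAST-/129+. In CAST-/129-, 27 (2.80%) were higher and 80 (8.28%) lower, against 0.724% and 4.04%. Among sites with RNA in wild type by the rule above, 70 of 427 (16.4%) were lower in CAST-/129- against 26.0% of such bins. Among sites without it, 10 of 539 (1.855%) were lower against 0.747% of such bins. With RNA in wild type required, the share of lower calls was thus smaller at the sites than in the bins. Without such RNA it was larger. Lower calls in CAST-/129- made up 45 of 396 (11.4%) acetylated and 35 of 570 (6.14%) other sites outside genes, and 43 of 249 (17.3%) and 27 of 178 (15.2%) of those with RNA in wild type. Without stacked sites, 17 sites were higher and 74 lower in CAST-/129-. Counted by reads before collapsing, with stacked sites kept, 22 were higher and 46 lower.

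At the 185 sites with outward RNA in wild type, at least 1 CPM was kept on that side by 82.7% in CAST+/129-, 75.7% in CAST-/129+ and 71.4% in CAST-/129-, against 54.1%, 49.99% and 44.3% of distal bins with outward RNA. The median difference from wild type on that side was -0.34, -0.42 and -0.69 on the log2 scale of CPM + 0.5, against -0.74, -0.77 and -0.96 for the bins. The bins started nearer to 1 CPM, with wild-type quartiles of 1.31, 1.97 and 3.597 CPM against 1.81, 3.44 and 7.51 at the sites, and both were taken for their RNA in wild type. Reads per distinct alignment also differed, at 2.54, 2.02, 2.02 and 1.84 in the order of RNA libraries given above, and CPM counts distinct alignments. The part of these differences in the values above was not tested.

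The 5 largest differences below wild type in CAST-/129-, with the same direction in both monoallelic clones, were at sites without stacked reads. Near 1700106J16Rik, at chr11:88121001-88122000, minus-strand RNA was at 8.38 CPM in wild type, 0.514 in CAST+/129- and 0 in the other clones, where a count of 0 allows up to 0.369 and 0.419 CPM (3 alignments). Near BC067074, at chr13:114083001-114084000, plus-strand RNA was at 11.2, 1.67, 1.35 and 0.419 CPM, a log2 difference of -3.67 in CAST-/129-. Near SNORA48, at chr13:65277001-65278000, minus-strand RNA was at 29.4, 8.35, 6.39 and 2.24 CPM (-3.45). Near 2610305D13Rik, at chr4:146973001-146974000, plus-strand RNA was at 44.3, 26.4, 12.2 and 3.91 CPM (-3.34). Near Zap70, a kinase gene of T cells, at chr1:36843001-36844000, minus-strand RNA was at 4.47, 1.60, 0.614 and 0 CPM. That every clone was below wild type at each of the 5 sites follows from the rule that chose them. CAST-/129- was lowest or tied for lowest. None of the 5 had outward RNA in wild type by the rule above. Of the wild-type alignments on the strand given, 831 of 941 near SNORA48 and 114 of 143 near Zap70 lay to the right. Near 2610305D13Rik, 1079 of 1416 lay to the left. Near BC067074, 158 lay to the left and 153 to the right, and near 1700106J16Rik 140 and 99.

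Of the 5 largest differences above wild type in CAST-/129-, 3 were at stacked sites. At the Gm5614 site, plus-strand RNA was at 6.82, 205, 262 and 127 CPM, and minus-strand RNA at 4.47, 127, 225 and 100 CPM, with 45.2 reads per alignment in H3K4me3. Near Gm9075, at chr12:3110001-3111000, plus-strand RNA was at 6.57, 158, 216 and 106 CPM, and near Dpy19l1, at chr9:24346001-24347000, the levels were 0.2502, 5.20, 9.83 and 5.59 CPM. The sites without stacked reads lay 12.7 kb from Phlda3 and 8.90 kb from Zfp945. At the former, chr1:137649001-137650000, plus-strand RNA was at 18.3, 75.1, 64.5 and 99.9 CPM, and 577 of its 585 wild-type alignments lay to the left of the site, on the side of Csrp1. At the latter, chr17:23013001-23014000, plus-strand RNA was at 24.5, 57.7, 97.2 and 125 CPM, and 719 of 782 wild-type alignments lay inside the site. These 5 sites were also chosen for the same direction in both monoallelic clones. That wild type was lowest at each of them follows from this rule.

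Few sites lay nearest to pluripotency genes. Of a list of 34 such genes, 3 had a site nearest to them, which made 0.194% of sites against 0.104% of distal bins. The Tet1 site, at chr10:62348001-62351000 in an intron, was the strongest, with 49.9-fold (42.0-58.9) H3K4me3, 131-fold (105-163) H3K27ac in F123, 43.6-fold in J1 and a CpG ratio of 0.733. Minus-strand RNA, the strand of Tet1, was at 56.9, 44.7, 27.8 and 17.5 CPM. The levels were ordered the same way as those of Sox2, Nanog and Zfp42, and as the depth of the libraries. No intervals of neighbours in that order overlapped. RNA of Tet1 as a whole and RNA that starts at the site cannot be told apart on this strand. A site 7.94 kb from Sall1, a zinc finger gene, had 12.8-fold H3K4me3 and 12.8-fold H3K27ac in F123, with outward RNA on the minus strand, the strand of Sall1. Minus-strand RNA was at 6.79, 14.4, 7.13 and 9.22 CPM. There only the CAST+/129- interval (12.56-16.39) lay above that of wild type (5.915-7.754), and those of CAST-/129+ (5.413-9.215) and CAST-/129- (7.133-11.73) overlapped it. Plus-strand RNA was at 19.5, 8.67, 5.65 and 4.33 CPM, with every clone's interval below that of wild type. A site in an intron of Esrrb, a nuclear receptor of the pluripotency network, had 8.92-fold H3K4me3 and 4.80-fold H3K27ac in F123, with 0 RNA alignments in each of the 4 libraries.

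Sites nearest to developmental regulators were CpG-rich more often than the sites as a whole. By gene symbols that begin with names such as Pax, Wnt, Fox or Irx, 26 sites fell to 23 genes, 1.68% of sites against 0.704% of distal bins. Of these, 15 (57.7%) were CpG-rich, 8 (30.8%) were acetylated in F123 and 7 (26.9%) in J1, against 28.1%, 38.8% and 39.2% of all 1543 sites. None of the 23 outside genes had outward RNA, which allows a share of up to 13.0%. The share was 19.2% of all sites outside genes. By H3K4me3 it was 12.5% at 8 to 12-fold, 25.7% at 12 to 20-fold and 39.4% at 20 to 40-fold. Some of the 23 sites fell in each of these classes. The site 19.3 kb from Pax3, a regulator of neural crest and muscle, had 13.6-fold H3K4me3, 0 H3K27ac alignments in F123, 0.977-fold in J1 and a CpG ratio of 0.934. The site 102 kb from Irx5 had 14.6-fold H3K4me3, 0 H3K27ac alignments in F123 and a CpG ratio of 1.05. Dlx2, Foxa1 and Tbx18 also had sites with 0 H3K27ac alignments in F123. So did Wnt2b, Neurog1 and Six3, at sites with CpG ratios of 0.572, 0.307 and 0.508, which are not CpG-rich. Of all 1543 sites, 19.5% had 0 H3K27ac alignments in F123. The strongest H3K4me3 of this list was near Foxj2, with 25.3-fold H3K4me3, 60.9-fold H3K27ac in F123 and 43.6-fold in J1, and near Foxk1, with 21.4-fold, 28.8-fold and 17.9-fold, the only ones of the 26 with over 20-fold H3K4me3.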

How the data were processed

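The authors mapped reads to mm9 with Bowtie (ChIP-seq) or Novoalign and USeq (RNA-seq) and deposited alignments per library as counts of reads at each distinct position and strand. Tables were computed in Python 3.11.15 with pandas 2.3.3, numba 0.67.0, numpy 2.4.6 and scipy 1.17.1 and drawn with matplotlib 3.10.9. Distinct alignments were counted, ChIP-seq by the 5′ end and RNA-seq by the midpoint. RNA strand was taken as opposite to the alignment, since 97.7% to 98.1% of alignments in exons of protein-coding genes lay opposite. Counting distinct alignments compresses abundant RNA. Annotation was GENCODE M1, and RefSeq (GRCm38.p6) gave neighbouring gene names only. The antibody for H3K4me3 is given as Abcam ab8580 in the labels and differently in the methods. Named sites were the 10 highest by H3K4me3, 5 by H3K27ac, 5 by outward RNA, up to 5 higher and 5 lower in CAST-/129-, and sites nearest listed pluripotency genes. 1 site that these rules name is not reported here. The 3 sites on each side of the threshold were tied with many others and are given as counts. Sites and lists were chosen with earlier results of these data known. Alternatives changed the thresholds, windows, pseudo-value, unit and sites kept. The calling steps were tested on simulated data. Coordinates are 1-based.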

Additional observations from a re-analysis of the deposited data

How the results depend on the processing

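The number of sites was 1543 and moved most with the threshold: 6716 at 5 times and 512 at 12 times the mean, 6612 when alignments seen in a single read were left out, and 794 when bins without alignments were left out of the mean. Acetylated sites numbered 958 at 3 times the mean in F123 (599 at 5 times) and 360 at 10 times in J1 (605). Sites with RNA numbered 409 within 2 kb and 328 when only sites with no gene within 5 kb were kept, and outward RNA 118 within 2 kb (185 in 5 kb). Sites changed in CAST-/129- (106) numbered 191 with a pseudo-value of 0.25 CPM, 54 with 1 CPM, 317 at 2-fold and 68 by reads before collapsing. Higher sites (27) were 53 with 0.25 CPM, 102 at 2-fold and 17 without stacked sites, and lower sites (80) were 139 with 0.25 CPM, 35 with 1 CPM, 220 at 2-fold and 46 by reads. The other 36 values for these results moved by less, counts by at most 1.5 times. Among them, higher sites were 18 with no gene within 5 kb. The 30 for the named higher and lower sites kept their direction and stayed past 3-fold, but their size moved, at most near 1700106J16Rik, from -5.11 to -3.23 on the log2 scale with pseudo-values of 0.25 and 1 CPM. The alternatives without stacked sites and with no gene within 5 kb were chosen after seeing the data. No paired analysis was possible because each condition had 1 library, and no replicate could be left out. At these depths a count of 0 in a clone allows up to 0.193 to 0.419 CPM. The cause of each shift was not tested.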
